A study of Mus musculus with 26 samples.

Results

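The 2 small interfering RNAs that the study used against the same gene, siSMYD3#1 and siSMYD3#2, were compared with each other after 24 h of differentiation. The comparison set the 3 siSMYD3#1 libraries against the 3 siSMYD3#2 libraries of that time point, which are 6 of the 26 libraries of the series, chosen from their labels alone. All were polyadenylated RNA of C2C12 cells, a mouse myoblast line, transfected with siRNA and harvested before (0 h) or 24 h after the move to differentiation medium. The siCtrl libraries at 24 h (n = 3) were cells transfected with a scrambled siRNA, and the same 3 transfections at 0 h (3 libraries each) made up the rest of the 18 siRNA libraries. In every group the first 2 replicates were cells of passage 14 with RNA from the NucleoSpin kit and the third was cells of passage 11 with RNA from TRIzol, so extraction and passage cannot be told apart. Replicates carry the numbers of the study's sample table, and a legend of the study numbers the TRIzol replicate 1 instead. The study's methods call the replicates biological. The labels do not say that replicates were separate cultures, and p-values measure only the spread between these libraries.

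An siRNA is a short RNA duplex whose antisense strand is loaded into the Argonaute protein and guides it to a transcript with the complementary sequence, which is then cut. The same strand can also lower other transcripts through its seed, the bases near its 5′ end, in the way a microRNA does. For that reason a gene is commonly silenced with more than one siRNA, and differences between them are of interest in their own right. SMYD3 is a lysine methyltransferase with a SET and a MYND domain. C2C12 myoblasts that are deprived of serum stop dividing, express the transcription factor myogenin (Myog), make sarcomere proteins and fuse into myotubes.

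The antisense strands are shown because they are the only designed difference between the groups. They are written 5′ to 3′ as RNA, with the seed (positions 2 to 8, counted from the 5′ end) in capitals.
siSMYD3#1: gUUGGGGUcacagcuguga
siSMYD3#2: uCAAAUCUucaaucaggcu
siCtrl: aCGUGACAcguucggagaa
Each has 19 bases, of which 11 are G or C in siSMYD3#1, 7 in siSMYD3#2 and 10 in siCtrl. The seed of siSMYD3#1 has 4 G or C bases and that of siSMYD3#2 has 2. In the GRCm38 mouse genome with the GENCODE M21 annotation, both siSMYD3 sequences matched Smyd3 on chromosome 1 without a mismatch, on the minus strand. The site of siSMYD3#1 was chr1:179092935-179092953 in coding exon 7 of the 12 exons of Smyd3-204, and that of siSMYD3#2 was chr1:178957505-178957523 in the coding part of exon 12. Of the 7 annotated Smyd3 transcripts, 3 hold the first site and 4 the second.

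Smyd3 itself (ENSMUSG00000055067) differed between the siRNAs. Its level, in CPM (counts per 1000000 counts of the TMM-scaled library size), was 15.2 and 15.1 in the NucleoSpin libraries and 19.3 in the TRIzol library of siSMYD3#1, against 5.46, 5.37 and 9.65 with siSMYD3#2. The siCtrl libraries were at 17.8, 19.9 and 20.7. The lowest siSMYD3#1 library was above the highest siSMYD3#2 library, and the siSMYD3#1 and siCtrl ranges overlapped. On the log2 scale the difference, siSMYD3#1 minus siSMYD3#2, was 1.27 (SE 0.171, edgeR quasi-likelihood test, adjusted p = 0.000176, n = 3 libraries per group), and it stayed past the threshold of 0.01 whichever of the 6 libraries was left out (highest adjusted p 0.00341). Against siCtrl at 24 h, Smyd3 was lower with siSMYD3#2 by a log2 difference of -1.51 (SE 0.171, edgeR adjusted p = 5.06e-05), while with siSMYD3#1 the difference was -0.24 (SE 0.161, adjusted p = 0.414). At 0 h, in other libraries, Smyd3 was at 16.9 to 19.3 CPM with siSMYD3#1 and 6.37 to 8.93 CPM with siSMYD3#2, a log2 difference of 1.26 (edgeR adjusted p = 0.000236). Protein was not analysed here, and reads of the 7 transcripts are summed in these counts. The study also measured Smyd3 transcript by qPCR and SMYD3 protein by western blot in knockdown cells, and those assays were not used here.

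Library totals of the 6 libraries ran from 14315193 to 32165613 counts. Their first principal component, with 64.67% of the variance, separated the TRIzol from the NucleoSpin libraries in both groups, and the second, with 17.73%, separated the siRNAs. Of 15820 genes tested, 325 were higher with siSMYD3#1 (2.05% of the genes tested) and 207 were lower (1.31%) at an adjusted p under 0.01. An unadjusted p under 0.05 was reached by 3513 of the 15820 genes. The size was at least 2-fold for 93 of the higher and 38 of the lower genes, and the median log2 difference was 0.70 among the higher genes, -0.64 among the lower ones and -0.01 over all genes. In the NucleoSpin means all 325 and all 207 had the direction of the fit, and in the TRIzol pair alone 324 of 325 and 206 of 207 did, with smaller medians there (0.55 and -0.51) than in the NucleoSpin means (0.79 and -0.70). For 217 of the higher genes and 152 of the lower ones the 3 libraries of each siRNA did not overlap, as was the case for 6.97% and 6.74% of all genes tested in these directions. The number of genes past the threshold rested on single libraries: without siSMYD3#1 replicate 1, 2 or 3 it was 201, 253 or 872, and without siSMYD3#2 replicate 1, 2 or 3 it was 251, 180 or 433, in place of 532. Without siSMYD3#1 replicate 3, the TRIzol library, 421 genes were higher and 451 lower with siSMYD3#1.

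**Figure D1:**
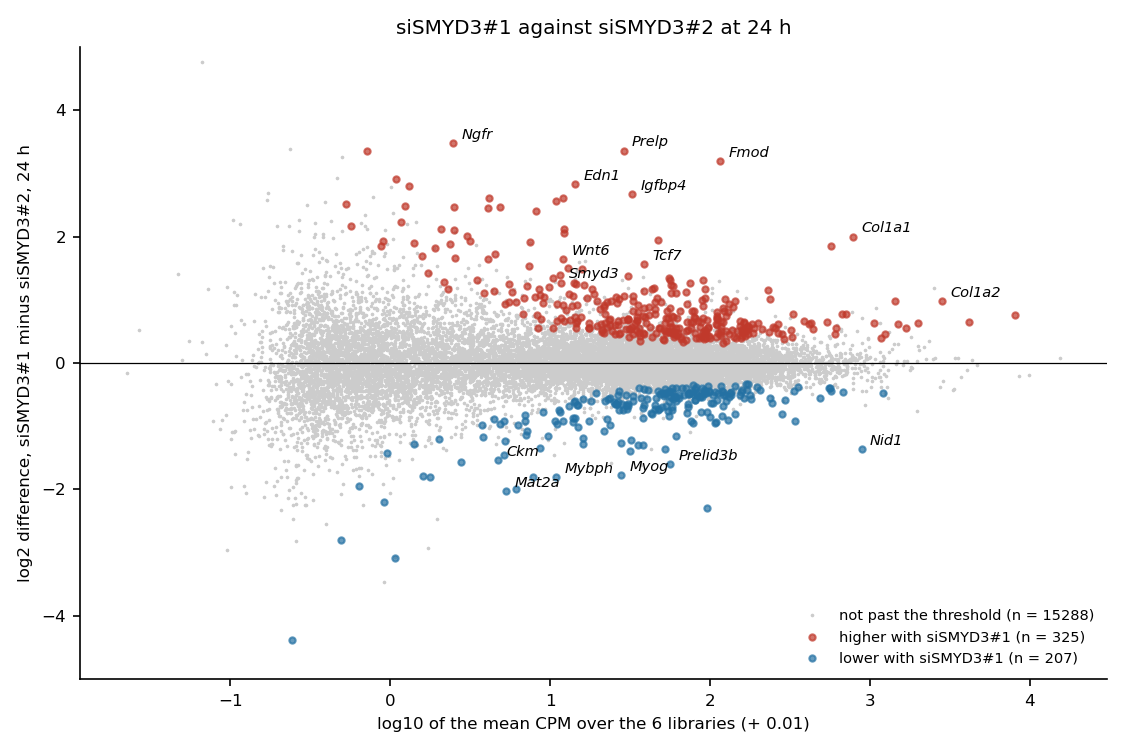
Each point is 1 of the genes tested, with the log10 of its mean CPM over the 6 libraries on the x axis and the fitted log2 difference, siSMYD3#1 minus siSMYD3#2 at 24 h, on the y axis. Red points (325) were higher and blue points (207) lower with siSMYD3#1 at an edgeR adjusted p under 0.01, and the labelled genes include Prelp (3.36) and Col1a1 (2.00) above 0 and Mat2a (-2.03) and Nid1 (-1.37) below it.

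The 15 largest positive differences, among called genes with a mean of at least 100 counts over the 6 libraries and no overlap between the siRNAs, included several genes of the extracellular matrix. Prelp and Fmod encode prolargin and fibromodulin, small leucine-rich proteoglycans that bind collagen fibrils. Prelp was at 46.9, 62.5 and 47.4 CPM with siSMYD3#1, at 3.76, 3.46 and 8.71 CPM with siSMYD3#2 and at 5.43, 4.90 and 20.9 CPM with siCtrl. All 3 siSMYD3#1 libraries were above the other 6 (log2 difference from siSMYD3#2 3.36, SE 0.434, edgeR adjusted p = 0.00046), and the call held whichever single library was left out. Fmod was at 151, 194 and 266 CPM with siSMYD3#1 and at 11.1, 7.85 and 66.6 CPM with siSMYD3#2, again without overlap, with the TRIzol library highest in both groups. Its log2 difference was 3.19 (SE 0.577, edgeR adjusted p = 0.00567), and it did not pass on leaving out any of the 4 NucleoSpin libraries (highest adjusted p 0.0397). Tgfbi, an adhesion protein of the matrix, had a difference of 2.47 (edgeR adjusted p = 0.00189) that was lost without siSMYD3#1 replicate 1, siSMYD3#2 replicate 2 or siSMYD3#2 replicate 3 (highest adjusted p 0.0159).

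Fibrillar collagen transcripts were among the most abundant of the genes that set the siRNAs apart. Col1a1, the alpha-1 chain of type I collagen, was at 1749, 1395 and 658 CPM with siSMYD3#1, at 315, 240 and 321 CPM with siSMYD3#2 and at 304, 242 and 280 CPM with siCtrl. The siSMYD3#1 libraries were all above the others and the TRIzol library was the lowest of them, while the siSMYD3#2 and siCtrl ranges overlapped. The log2 difference between the siRNAs was 2.00 (SE 0.280, edgeR adjusted p = 0.000733, kept whichever single library was left out). Col1a2, the partner chain in type I collagen, was at 4435, 4138 and 2792 CPM with siSMYD3#1 and at 2019, 1933 and 1716 CPM with siSMYD3#2, a log2 difference of 0.98 (edgeR adjusted p = 4.66e-05), and Col5a1, which starts fibril assembly, had 0.98 as well (adjusted p = 8.71e-05). Col3a1, named after its values were seen, was at 11888, 11690 and 7084 CPM against 6201, 6068 and 5330 CPM (log2 difference 0.77, edgeR adjusted p = 0.000365). Of 23 collagen genes tested, 8 were higher and 0 lower at a background of 2.05% and 1.31% over all genes, Col15a1 and, named after their values were seen, Col8a1, Col5a2 and Col18a1 being called beside these 4, and all 23 had a positive difference with a median of 0.63. Col15a1 had 2.56 on the log2 scale, but its groups overlapped, with 21.2, 32.1 and 3.59 CPM against 4.37, 1.62 and 2.04 CPM, and the call was lost on leaving out any of the 4 NucleoSpin libraries (highest adjusted p 0.0324). Over the list, 4 collagens were called without siSMYD3#2 replicate 1 or 2 and 5 without siSMYD3#1 replicate 1 or 2. Fibroblast markers, of which 5 were tested and 0 called by edgeR (3 at an unadjusted p under 0.05 and 1 by DESeq2), had a median of 0.86, and their part in the collagen difference was not tested.

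The list counts of this paragraph stand beside 2.05% of all genes higher and 1.31% lower. Among 53 matrix glycoproteins, proteoglycans and crosslinking enzymes, 11 were higher and 1 was lower, with a median log2 difference of 0.39. In this list 3 to 5 were higher when any of the 4 NucleoSpin libraries was left out. Postn, which encodes the matrix protein periostin, was at 1232, 1502 and 144 CPM with siSMYD3#1 and 246, 223 and 90.5 CPM with siSMYD3#2. Its NucleoSpin libraries differed by 2.54 and its TRIzol pair by 0.67 on the log2 scale, the groups overlapped, and the fitted difference of 1.85 (edgeR adjusted p = 0.00432) was lost on leaving out any of the 4 NucleoSpin libraries (highest adjusted p 0.0350). Lox, the collagen-crosslinking lysyl oxidase, and Sparc, a collagen-binding glycoprotein, both named after their values were seen, had differences of 0.78 and 0.65 (edgeR adjusted p = 0.00148 and 0.000322), of which Lox was lost without siSMYD3#1 replicate 1 or siSMYD3#2 replicate 1 or 2 (highest adjusted p 0.0199). Among remodelling enzymes, 4 of 25 metalloproteinase, ADAM protease and TIMP genes were called higher and 0 lower (median 0.31; 1 without siSMYD3#1 replicate 1 or 2 or siSMYD3#2 replicate 2), among them the membrane-bound collagenase Mmp14 with 0.78 (edgeR adjusted p = 0.000432). Of 12 plasminogen activator and protease inhibitor genes, 2 were higher and 0 lower, and the thrombin inhibitor Serpine2 was at 90.6, 95.1 and 56.0 CPM against 29.8, 32.4 and 34.5 CPM (log2 difference 1.31, edgeR adjusted p = 9.9e-05).

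The exception among matrix genes was Nid1, which encodes nidogen, the linker of laminin and type IV collagen in basement membranes. It was at 558, 586 and 308 CPM with siSMYD3#1, at 1547, 1695 and 644 CPM with siSMYD3#2 and at 952, 1002 and 413 CPM with siCtrl. Every siSMYD3#1 library was below every siSMYD3#2 library, and within each extraction the siCtrl libraries lay between them. Its log2 difference of -1.37 (SE 0.113, edgeR adjusted p = 2.24e-06) was kept whichever single library was left out. Against siCtrl, in comparisons that share the siRNA libraries with this one, it was -0.66 with siSMYD3#1 and 0.71 with siSMYD3#2 (edgeR adjusted p = 0.000563 and 0.000649). Over all genes, 2.91% were higher and 2.94% lower than siCtrl with siSMYD3#1, and 1.66% higher and 2.04% lower with siSMYD3#2.

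**Figure D2:**
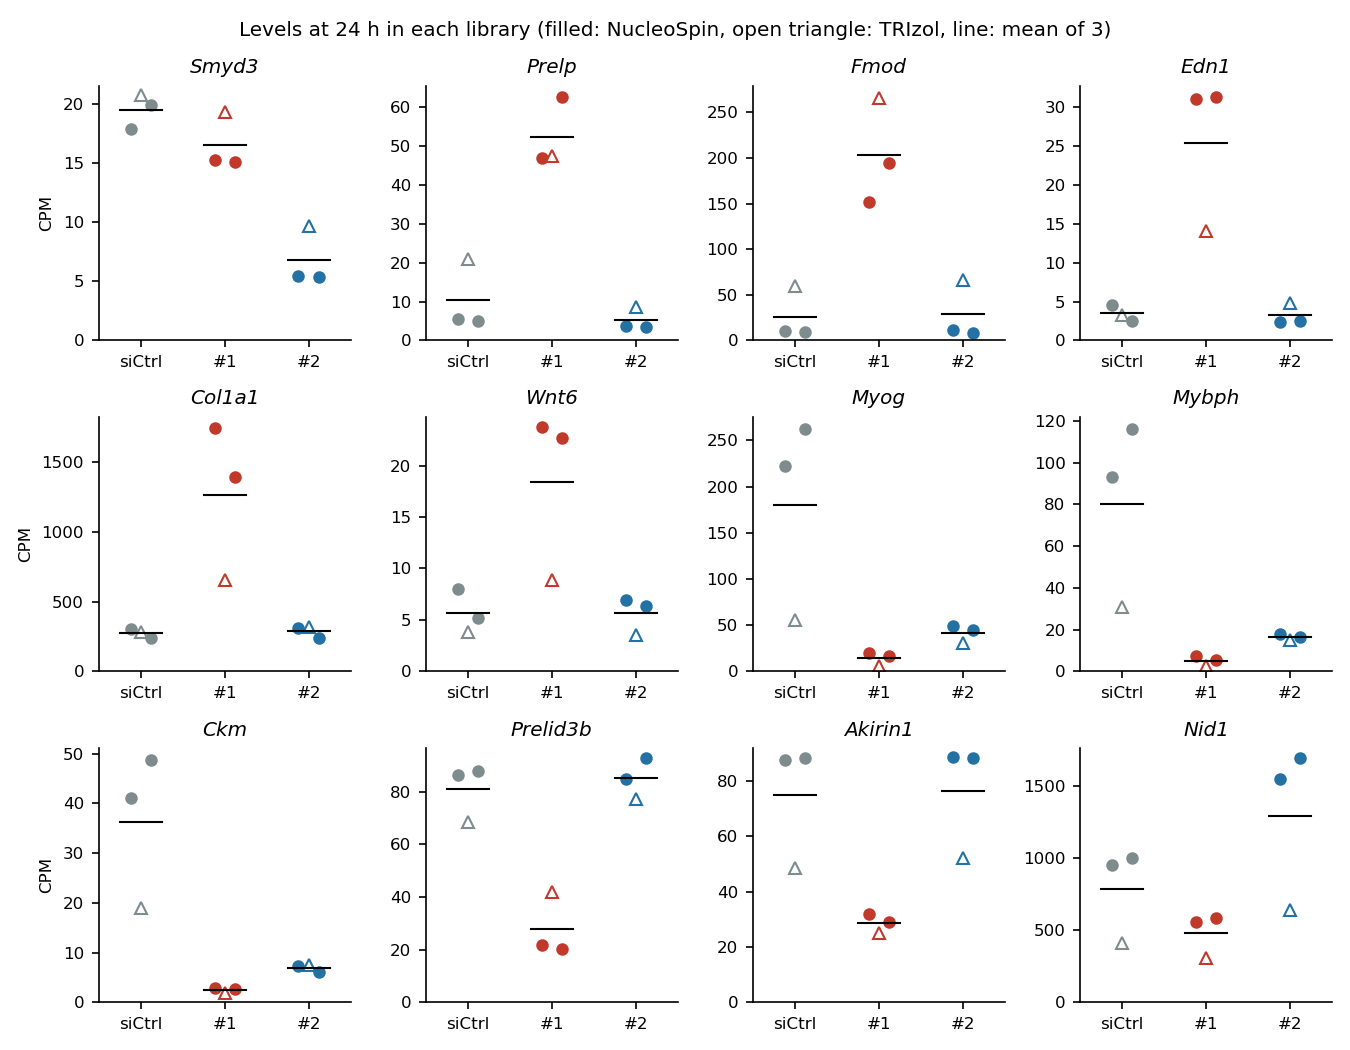
Levels of 12 genes at 24 h in CPM (y axes, linear and starting at 0) in the 3 libraries of siCtrl, siSMYD3#1 and siSMYD3#2 (x axes), with filled circles for NucleoSpin, open triangles for TRIzol and a line at the mean of 3. In Smyd3 the siSMYD3#2 libraries are the lowest, in Prelp, Fmod, Edn1, Col1a1 and Wnt6 the siSMYD3#1 libraries stand above the other 6, in Myog, Mybph and Ckm both siSMYD3 groups lie below siCtrl with siSMYD3#1 lowest, and in Prelid3b and Akirin1 the siSMYD3#1 libraries alone are low.

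Edn1, the vasoactive peptide endothelin-1 and a target of the SRF and YAP transcriptional programs, was at 31.0, 31.3 and 14.0 CPM with siSMYD3#1, at 2.43, 2.54 and 4.78 CPM with siSMYD3#2 and at 4.56, 2.55 and 3.31 CPM with siCtrl. The siSMYD3#1 libraries were above all others, with a log2 difference from siSMYD3#2 of 2.83 (SE 0.306, edgeR adjusted p = 4.46e-05). Of 28 SRF and YAP target genes, 4 were higher (Edn1, Ccn5, Ajuba and Amotl2) and 0 lower, beside 2.05% and 1.31% of all genes, with a median of 0.31. Without siSMYD3#2 replicate 3, 7 were higher. Ccn5, a matricellular protein, had 1.53 (edgeR adjusted p = 0.000306), while Ajuba and Amotl2, which act in the Hippo pathway upstream of YAP, had 0.80 and 0.66 (adjusted p = 0.000109 and 0.0005). The groups of Ajuba and Amotl2 overlapped because the TRIzol library of siSMYD3#2 was above the NucleoSpin libraries of siSMYD3#1, and within each extraction siSMYD3#1 was the higher. None of 41 immediate early and growth factor feedback genes was called by edgeR, 11 had an unadjusted p under 0.05, DESeq2 called 5, and their median was 0.16. For comparison, 3513 of all 15820 genes had an unadjusted p under 0.05.

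Of 36 Wnt pathway genes tested, 7 were higher and 1 was lower, beside 2.05% and 1.31% of all genes, with a median log2 difference of 0.44. Wnt6, a secreted ligand, was at 23.7, 22.7 and 8.89 CPM with siSMYD3#1, at 6.97, 6.35 and 3.57 CPM with siSMYD3#2 and at 7.98, 5.22 and 3.8 CPM with siCtrl. The siSMYD3#1 libraries were the highest, without overlap, by 1.65 (SE 0.175, edgeR adjusted p = 1.77e-05). Tcf7, a transcription factor through which beta-catenin acts, was at 66.1, 63.9 and 44 CPM against 19.3, 16.4 and 22.5 CPM, also without overlap (log2 difference 1.57, edgeR adjusted p = 1.45e-05). Wnt10a, the gene next to Wnt6, had 1.02 (adjusted p = 5.05e-05) and was named after its values were seen. Secreted regulators of the pathway were split, since the secreted Wnt deacylase Notum was higher by 2.80 on the log2 scale (edgeR adjusted p = 0.00036, siSMYD3#2 libraries at 0.115 to 0.471 CPM) and the secreted inhibitor Dkk2 was lower (log2 difference -0.91, adjusted p = 0.00187, lost without siSMYD3#1 replicate 2 or siSMYD3#2 replicate 2, highest adjusted p 0.0245).

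Growth factor genes differed in both directions. Igfbp4, a secreted protein that binds insulin-like growth factors, was at 48.3, 92.0 and 28.7 CPM with siSMYD3#1 and at 12.6, 6.92 and 6.86 CPM with siSMYD3#2, with siCtrl at 10.2, 7.18 and 10.2 CPM. The siSMYD3#1 libraries did not overlap the others and spread widely among themselves (log2 difference 2.67, SE 0.373, edgeR adjusted p = 0.000704). Ngfr, the low-affinity neurotrophin receptor, was at 7.18, 4.95 and 1.35 CPM with siSMYD3#1, 0.606, 0.519 and 0.157 CPM with siSMYD3#2 and 7.36, 7.45 and 0.633 CPM with siCtrl. Here the siSMYD3#2 libraries were the low ones and siSMYD3#1 and siCtrl overlapped (3.47 between the siRNAs, SE 0.360, edgeR adjusted p = 1.49e-05). Hgf, the ligand of the MET receptor, went the other way with 40.1, 44.9 and 44.8 CPM against 68.4, 73.1 and 75.9 CPM, and siCtrl at 36.1 to 41.2 CPM (log2 difference -0.75, edgeR adjusted p = 0.000504). A list of 48 tested genes held receptor tyrosine kinases, their ligands and related growth factor genes such as Ngfr and Igfbp4. Of these 48, 5 were higher and 1 was lower, with a median of 0.31. On leaving out any of the 4 NucleoSpin libraries, 2 or 3 were higher. Counts of this list and the next stand beside 2.05% of all genes higher and 1.31% lower. Of 40 TGF-beta, BMP, activin and myostatin genes, 7 were higher and 0 lower (median 0.34), among them the BMP antagonist Nog, the activin subunit Inhbb, the ligand Tgfb2 and the procollagen protease Bmp1. The calls of this list rested on the NucleoSpin libraries: Nog (1.89), Inhbb (1.35) and Tgfb2 (0.93) were lost on leaving out any of the 4, Bmp1 (0.54) without 3 of them, and by edgeR 0 of the 40 genes were called without siSMYD3#1 replicate 1 or siSMYD3#2 replicate 1 or 2 (highest adjusted p 0.0631 for Tgfb2).

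Other genes among the 15 largest positive differences were Rapgef3, a cyclic AMP-activated exchange factor for Rap1 (2.40, edgeR adjusted p = 0.000194), the copper-carrying ferroxidase Cp (1.95, adjusted p = 0.000614), the collagen-binding integrin chain Itga10 (1.92, adjusted p = 0.000593), the PI3-kinase inhibitor Pik3ip1 (1.5, adjusted p = 0.00053), and the T cell receptor constant-region genes Trdc (2.06, adjusted p = 0.000235) and Trac (1.65, adjusted p = 8.76e-05). Against siCtrl each of these genes had a positive difference with siSMYD3#1, from 0.70 for Pik3ip1 to 2.12 for Itga10 (edgeR adjusted p = 0.0479 and 0.000116). With siSMYD3#2 none passed 0.01 against siCtrl, and the differences ran from -1.12 for Trdc to 0.20 for Itga10 (edgeR adjusted p = 0.019 and 0.771). Trdc did not pass with siSMYD3#1 either (0.95, edgeR adjusted p = 0.0232). Of the 15, 13 passed whichever single library was left out, the exceptions being Fmod and Tgfbi. Part of the exons of Prelp, Edn1, Rapgef3, Trdc, Cp and Pik3ip1 is also annotated to a gene of the other strand, and part of those of Itga10 to a gene of the same strand, and the strand setting of the counting is not given in the sources used here.

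Among the genes lower with siSMYD3#1 were muscle differentiation genes that were lower with either siRNA than with siCtrl. Myog was at 19.8, 17.2 and 5.64 CPM with siSMYD3#1, at 48.6, 45.2 and 31.1 CPM with siSMYD3#2 and at 222, 262 and 55.6 CPM with siCtrl. The 3 groups did not overlap, and siSMYD3#1 was lowest within each extraction. The difference between the siRNAs was -1.77 on the log2 scale (SE 0.292, edgeR adjusted p = 0.00211), and it was lost without siSMYD3#1 replicate 1 or replicate 2 (highest adjusted p 0.0158). Against siCtrl, Myog was -3.59 with siSMYD3#1 and -1.81 with siSMYD3#2 (edgeR adjusted p = 5.4e-06 and 0.00125). Mybph, a myosin-binding protein of the thick filament, was at 7.40, 5.38 and 2.73 CPM against 17.9, 16.6 and 15.1 CPM, far below the 93.1, 116 and 30.7 CPM of siCtrl (log2 difference between the siRNAs -1.81, edgeR adjusted p = 0.0005, kept whichever single library was left out). Ckm, the muscle creatine kinase, had 2.90, 2.62 and 1.96 CPM against 7.34, 6.06 and 7.57 CPM and siCtrl at 19 to 48.8 CPM (-1.54, adjusted p = 0.000953, kept whichever single library was left out).

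Other muscle genes with lower levels under siSMYD3#1 were Sox8, a SOX-family transcription factor expressed in myoblasts (-1.99, edgeR adjusted p = 0.000322), the fast light chain Mylpf (-1.29, adjusted p = 0.00613), the hemojuvelin gene Hfe2 (-1.45, adjusted p = 0.00381), the myosin chaperone Unc45b (-1.79, adjusted p = 0.00516), the calcium release channel Ryr1 (-1.07, adjusted p = 0.00349) and the fetal acetylcholine receptor subunit Chrng (-0.71, adjusted p = 0.00769). Of these 6, Sox8 alone passed whichever single library was left out, whereas Mylpf was lost on leaving out any siSMYD3#1 library, Ryr1 without siSMYD3#1 replicate 2 or 3 or siSMYD3#2 replicate 3, Hfe2 and Unc45b on leaving out any of 5 libraries and Chrng any of the 6 (highest adjusted p 0.0524). Mymk, the fusion protein myomaker, had -1.26 (edgeR adjusted p = 0.0117) and the embryonic myosin heavy chain Myh3 had -1.59 (adjusted p = 0.0128), neither past the threshold, although the groups of both did not overlap. Myod1, the determination factor upstream of Myog, had 0.53 (edgeR adjusted p = 0.339), with 17.6, 17.0 and 4.97 CPM against 11.2, 8.54 and 5.02 CPM, so that the NucleoSpin libraries differed by 0.82 and the TRIzol pair by -0.02. List counts here stand beside 1.31% of all genes lower and 2.05% higher. Of 16 thick filament genes tested 2 were lower and 0 higher with a median of -0.77. Of 23 myogenic transcription factors 3 were lower (Sox8, Myog and Msc) and 0 higher with a median of -0.04. Msc is also in the list of inhibitors of myogenic factors (-1.34, edgeR adjusted p = 0.00722), and its groups overlapped. Each of these lists had 1 lower without siSMYD3#1 replicate 1 or 2. The counts were 1 lower of 22 calcium handling genes (median -0.32), 1 of 10 acetylcholine receptor genes (median -0.37) and 1 of 20 Z-disc genes (median 0.10), the calls being those of Ryr1, Chrng and Unc45b above, and by edgeR 0 of 19 thin filament genes in either direction (median -0.19; 5 at an unadjusted p under 0.05 and 1 by DESeq2). Over all genes, 3513 of 15820 had an unadjusted p under 0.05. In 20 myoblast fusion genes the only call was Kirrel3, an immunoglobulin-family adhesion protein, which was higher (1.20, edgeR adjusted p = 0.000705).

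A further set of genes was low with siSMYD3#1 alone. Prelid3b, a mitochondrial lipid-transfer protein, was at 21.9, 20.2 and 42.0 CPM with siSMYD3#1, at 85.0, 93.0 and 77.4 CPM with siSMYD3#2 and at 86.2, 88.1 and 68.4 CPM with siCtrl. Only the siSMYD3#1 libraries stood apart (log2 difference -1.59, SE 0.211, edgeR adjusted p = 0.000359). Akirin1, a small nuclear protein, was at 31.8, 29.2 and 25 CPM with siSMYD3#1, 88.8, 88.3 and 52.3 CPM with siSMYD3#2 and 87.8, 88.2 and 48.5 CPM with siCtrl, again with only siSMYD3#1 low (-1.36, SE 0.139, edgeR adjusted p = 1.49e-05). Arhgap19, a GTPase-activating protein, had -1.22 (adjusted p = 6.86e-06) and the acyltransferase Lclat1 had -1.16 (adjusted p = 7.21e-06), and in these genes siSMYD3#2 lay above siCtrl, by 0.61 and 0.53 (edgeR adjusted p = 0.00185 and 0.00383). Ppif, the mitochondrial cyclophilin D, had -1.18 (adjusted p = 0.00132) and was lost without siSMYD3#1 replicate 1 (adjusted p 0.0114).

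Mat2a, the enzyme that makes S-adenosylmethionine, had the largest negative difference among called genes with a mean of at least 100 counts and no overlap, -2.03 (SE 0.423, edgeR adjusted p = 0.00749). Its levels were 1.52, 2.05 and 2.27 CPM with siSMYD3#1, 12, 11.3 and 2.51 CPM with siSMYD3#2 and 2.85, 2.94 and 2.43 CPM with siCtrl. Here the NucleoSpin libraries of siSMYD3#2 stood apart, the TRIzol pair differed by -0.15, and the call was lost on leaving out any of the 4 NucleoSpin libraries (highest adjusted p 0.0589). Its exons overlap Particl, which lies on the other strand. The exons of Sox8, Mybph, Ckm, Nid1 and Ppif likewise overlap a gene of the other strand. Of the 15 genes with the largest negative differences, 9 kept their call whichever single library was left out.

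A few lipid synthesis and stress genes were lower with siSMYD3#1. The 2 lists described here stand beside 1.31% of all genes lower and 2.05% higher. Of 34 cholesterol and fatty acid synthesis genes, 3 were lower and 0 higher, with a median of -0.41. Without siSMYD3#1 replicate 3, the TRIzol library, 11 were lower with a median of -0.81, and without siSMYD3#1 replicate 2 or siSMYD3#2 replicate 2 or 3 the count was 1. Elovl6, a fatty acid elongase, was at 76.2, 58.9 and 86.5 CPM with siSMYD3#1 against 136, 154 and 138 CPM with siSMYD3#2, without overlap (log2 difference -0.94, edgeR adjusted p = 0.000235). Acly, which makes cytosolic acetyl-CoA, had -0.92 and the acetyl-CoA carboxylase Acaca had -0.46 (edgeR adjusted p = 0.00261 and 0.00244), and both were lost without siSMYD3#1 replicate 2 or siSMYD3#2 replicate 2 or 3 (highest adjusted p 0.0272), Acly also without siSMYD3#1 replicate 1. Of 24 heat shock and oxidative stress genes, 4 were lower and 0 higher (median -0.26), namely Hmox1, Gsr, Srxn1 and Hspe1. Heme oxygenase Hmox1 had -0.75 (edgeR adjusted p = 0.0064), and all 4 genes were lost on leaving out any of the NucleoSpin libraries (highest adjusted p 0.0268 for Hmox1 and 0.0704 for Gsr).

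Counts in the remaining lists stand beside 2.05% of all genes higher and 1.31% lower, and 3513 of 15820 genes with an unadjusted p under 0.05. Of 40 DNA replication genes 2 were lower, the polymerase subunit Pola1 (-0.68, edgeR adjusted p = 0.00134) and the maintenance methyltransferase Dnmt1 (-0.51, adjusted p = 0.00822), with a median of -0.30. Without siSMYD3#1 replicate 3 the count was 18 lower with a median of -0.56, and without siSMYD3#2 replicate 2 it was 0, with Pola1 at an adjusted p of 0.0105. Of 58 mitosis genes 2 were lower, Bub1 and Mki67 (-0.45 and -0.44, adjusted p = 0.00618 and 0.0021), with a median of -0.19 (4 without siSMYD3#1 replicate 3 and 0 without siSMYD3#1 replicate 2 or siSMYD3#2 replicate 2 or 3), and of 24 cell cycle regulators edgeR called 0 (median -0.02; 7 at an unadjusted p under 0.05 and 1 by DESeq2). Against siCtrl at 24 h, Pola1, Bub1 and Mki67 were at 0.01, 0.05 and -0.05 with siSMYD3#1 (edgeR adjusted p = 0.971, 0.817 and 0.787). With siSMYD3#2 these genes were above siCtrl, by 0.69, 0.50 and 0.39 (edgeR adjusted p = 0.00108, 0.00267 and 0.00437). Dnmt1 was -0.21 with siSMYD3#1 and 0.30 with siSMYD3#2 (edgeR adjusted p = 0.272 and 0.111). In 54 ribosomal protein genes the count was 1 lower (median -0.02) and in 47 nuclear oxidative phosphorylation genes 1 lower (median -0.06). On leaving out any library but siSMYD3#1 replicate 3 both counts were 0. Of 38 interferon-stimulated genes 1 was higher, Ifitm1 (1.06, edgeR adjusted p = 1.49e-05), and of 13 antigen presentation genes 1, H2-T23 (1.38, adjusted p = 8.71e-05), with medians of -0.02 and 0.05. The 37 chemokine and cytokine genes had 4 higher and 1 lower (median 0.10; 0 higher on leaving out any of the 4 NucleoSpin libraries), and the 29 endosome and lysosome genes 3 higher and 0 lower (median 0.13; 0 higher without replicate 2 of either siRNA and 1 without replicate 1 of either). The counts were 4 higher and 1 lower of 30 integrin, cadherin and adhesion receptor genes (median 0.26), 2 higher and 1 lower of 46 p53 target and apoptosis genes (median 0.05), 2 higher of 41 unfolded protein response genes (median 0.14), 2 lower of 33 glycolysis genes (median -0.18), 1 lower of 15 Notch genes (Hey1, median -0.02) and 2 lower of 12 inhibitors of myogenic factors (Msc and again Hey1, median 0.27). On leaving out any of the 4 NucleoSpin libraries, the adhesion genes had 2 higher and 0 lower, the p53 genes 1 higher and 0 lower, the glycolysis genes 1 lower and the inhibitors of myogenic factors 0. The Notch call was lost on leaving out any of the 6 libraries, and the unfolded protein response genes had 0 higher without siSMYD3#1 replicate 2 or siSMYD3#2 replicate 1 or 2. Smyd3 was the only call among 47 SMYD family and histone methyltransferase genes (median -0.09). Of 17 RNA interference genes, 1 was lower, Tnrc6a, which encodes an Argonaute partner (-0.58, edgeR adjusted p = 0.000481), with 84.3, 77.6 and 105 CPM against 121, 124 and 153 CPM. Over all 35 lists, 1053 distinct genes were tested and 98 were called. The lists were written with earlier results of these data known, so these counts describe the lists and do not test them.

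**Figure D3:**
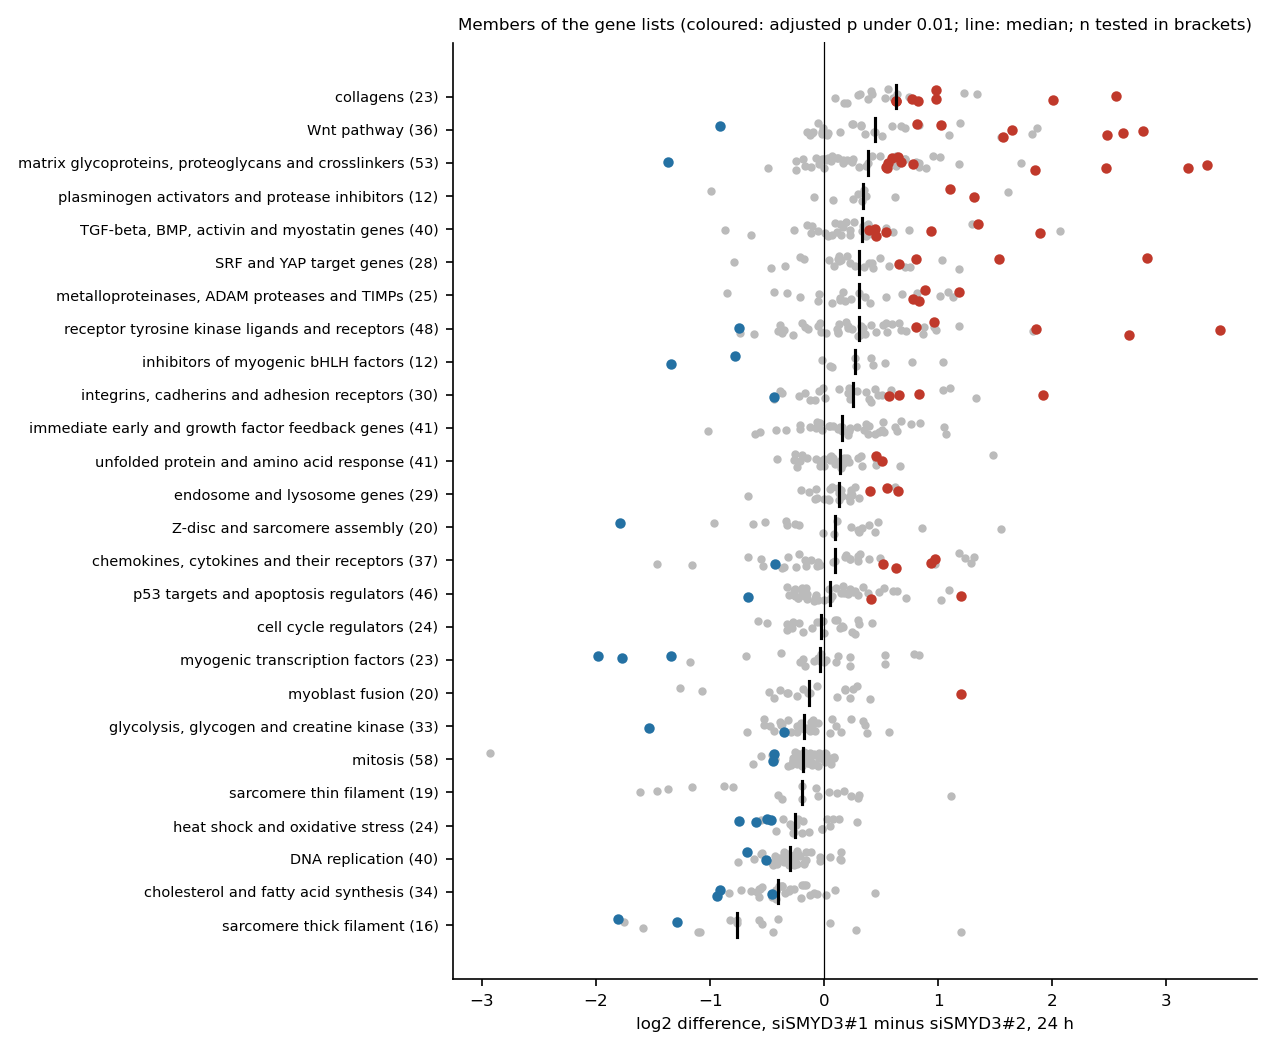
Each row is 1 of 26 gene lists with the number of members tested in brackets, and each point is a member placed by its log2 difference, siSMYD3#1 minus siSMYD3#2 at 24 h (x axis); red and blue points were past an edgeR adjusted p of 0.01 and the black bar is the median. The 23 collagens all lie above 0 with a median of 0.63, and the thick filament genes have the lowest median, -0.77.

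The same comparison at 0 h used 6 other libraries. There 60 genes were higher with siSMYD3#1 (0.379% of the genes tested) and 125 lower (0.79%), 12 and 16 of them by at least 2-fold. Of the 325 genes higher at 24 h, 39 (12%) were also called higher at 0 h, which is 65.0% of the 60 called there. Of the 207 genes lower at 24 h, 74 (35.75%) were also called lower at 0 h, which is 59.2% of the 125. No gene was called in opposite directions at the 2 times. The median log2 difference at 0 h was 0.32 for the genes higher at 24 h and -0.44 for the genes lower at 24 h, beside 0.01 for all genes.

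By name, the large positive differences were mostly not called at 0 h and part of the negative ones were. Of the 15 largest positive differences edgeR called 0 at 0 h, but 12 had an unadjusted p under 0.05, DESeq2 called 2, and their median there was 0.85. Over all genes at 0 h, 2145 of 15820 had an unadjusted p under 0.05. Prelp, for example, was at 7.75 to 8.62 CPM with siSMYD3#1 and 3.12 to 3.49 CPM with siSMYD3#2 at 0 h, a log2 difference of 1.28 (edgeR adjusted p = 0.177). Of the 15 largest negative differences 6 were called at 0 h (Prelid3b, Nid1, Akirin1, Arhgap19, Ppif and Lclat1), while Myog, Mybph and Mylpf were not (-0.27, 0.46 and -0.21). Genes called at both times also included, named after their values were seen, Cav1, the coat protein of caveolae (1.01 at 24 h and 0.95 at 0 h), the lysosomal galactosylceramidase Galc (0.96 and 1.16), the RNA-binding protein Mex3b (0.76 and 0.89), the actin-binding protein Lasp1 (0.67 and 0.84), the phospholipid enzyme Cds2 (-0.95 and -1.12) and the envelope protein Sprr1a (-2.29 and -1.64). The pro-apoptotic BH3 protein Bmf belonged here too, with 1.20 at 24 h and 1.49 at 0 h (edgeR adjusted p = 8.19e-05 and 6.04e-05).

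Against siCtrl the genes called at both times differed in which siRNA departed from the control. Galc was at 41.1, 41.7 and 23.2 CPM with siSMYD3#1, at 18.2, 17.1 and 16.7 CPM with siSMYD3#2 and at 42.7, 41.4 and 19.6 CPM with siCtrl at 24 h. Its siSMYD3#2 libraries were the lowest, and its siSMYD3#1 and siCtrl libraries overlapped. Cds2 was at 63.7, 69.5 and 89.0 CPM with siSMYD3#1, at 138, 134 and 154 CPM with siSMYD3#2 and at 139, 150 and 152 CPM with siCtrl. Here the siSMYD3#1 libraries alone were low.

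**Figure D4:**
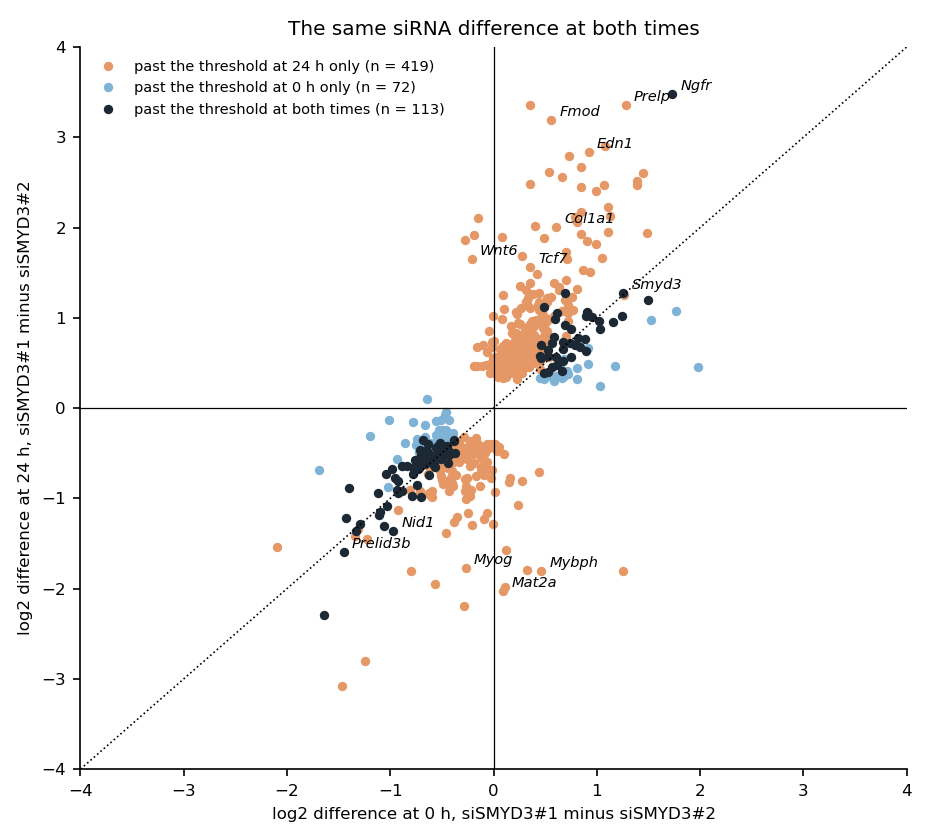
Genes called at 24 h only (419), at 0 h only (72) or at both times (113), with the log2 difference siSMYD3#1 minus siSMYD3#2 at 0 h on the x axis and at 24 h on the y axis; the dotted line marks equal differences and 1 gene lies outside the plotted range. Prelid3b, Nid1 and Smyd3 lie near the line, while Prelp, Fmod, Edn1 and Wnt6 lie above it and Myog, Mybph and Mat2a below it.

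The change of the siRNA difference between the times was tested directly. By edgeR 0 genes passed an adjusted p of 0.01, 961 of 15820 had an unadjusted p under 0.05, and DESeq2 called 22. At an adjusted p under 0.05 edgeR called 6 genes, of which all but Wnt6 were named after their values were seen. Wnt6 was at 4.98, 5.46 and 2.30 CPM with siSMYD3#1 and 5.34, 6.78 and 2.66 CPM with siSMYD3#2 at 0 h, where the groups overlapped, and its difference was larger at 24 h by 1.86 (interaction adjusted p = 0.0108). Wnt10a and the pseudogene Zfp862-ps had differences that were larger at 24 h by 1.03 and 0.89 (edgeR interaction adjusted p = 0.0301 and 0.0211). Hmga2, a chromatin protein of proliferating progenitors, had an interaction of -1.09 (adjusted p = 0.03), with a log2 difference of 0.28 at 0 h (edgeR adjusted p = 0.299) and of -0.81 at 24 h (adjusted p = 0.000543). Its 24 h levels were 38.0, 32.3 and 24.0 CPM with siSMYD3#1, 56.7, 66.0 and 42.9 CPM with siSMYD3#2 and 29.0, 28.4 and 22.1 CPM with siCtrl, so that the siSMYD3#2 libraries alone were high. The carboxypeptidase Cpa1 and the monooxygenase Fmo1 completed the 6, with -3.06 and -1.46 (edgeR interaction adjusted p = 0.0301 and 0.0366).

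Seed matches were counted in the longest annotated 3′ UTR of 12557 genes of the table. The letters searched were ACCCCAA for siSMYD3#1 and AGATTTG for siSMYD3#2, the complement of seed positions 2 to 8 on the transcript strand, and 10.06% and 13.64% of these UTRs held them. The sites of 5 genes are shown because each gene was lower with the siRNA whose seed it matches than with the other: the 19 bases opposite the whole antisense strand are written 5′ to 3′ in GENCODE letters, with the 7 bases opposite the seed in capitals, and each site has an A after the match, which makes it an 8-base site.
Akirin1 (siSMYD3#1): ttgtccaggttACCCCAAa
Lclat1 (siSMYD3#1): ttactttacctACCCCAAa
Pip4k2b (siSMYD3#1): ttttgtagataACCCCAAa
Foxd1 (siSMYD3#2): cgccgacttttAGATTTGa
Mex3b (siSMYD3#2): ttgctgagacaAGATTTGa
In GRCm38 they lie at chr4:123735892-123735910 (minus strand), chr17:73242007-73242025 (plus strand), chr11:97717400-97717418 (minus strand), chr13:98358114-98358132 (plus strand) and chr7:82871433-82871451 (plus strand), all in 3′ UTRs. Of the 19 bases, 10, 10, 9, 13 and 13 pair with the antisense strand.

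Genes lower with siSMYD3#1 held its seed match more often than all genes did, and their UTRs were also longer. Of 203 such genes with a UTR, 36 (17.73%) held the siSMYD3#1 match against 10.06% of all genes, but 35 (17.24%) held that of siSMYD3#2 and 17 (8.37%) that of siCtrl, against 13.64% and 2.94% of all genes, and their median UTR was 2084 bases against 1185. Of 316 genes lower with siSMYD3#2, 52 (16.46%) held the siSMYD3#2 match, 37 (11.71%) that of siSMYD3#1 and 7 (2.22%) that of siCtrl, with a median UTR of 1018.5 bases. Among the genes called at both times the shares of the 2 siSMYD3 seeds were higher. Of 74 genes lower with siSMYD3#1, 19 (25.68%) held its match, 17 (22.97%) that of siSMYD3#2 and 6 (8.11%) that of siCtrl. Of 39 genes lower with siSMYD3#2, 17 (43.59%) held its match, 5 (12.82%) that of siSMYD3#1 and 0 that of siCtrl. For 8-base sites, 11 of these 39 (28.21%) had one of siSMYD3#2, against 3.97% of all genes, and 7 of the 74 (9.46%) had one of siSMYD3#1, against 3.71%. An 8-base site of the other siSMYD3 seed was held by 2 of the 39 (5.13%) and 5 of the 74 (6.76%). The median UTR was 1681 bases in the 39 genes and 2347 in the 74.

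The same classes were counted from the sites. Of 991 genes with a siSMYD3#1 match alone, 23 (2.321%) were lower with siSMYD3#1 at 24 h and 26 (2.624%) were higher, against 145 (1.472%) and 238 (2.416%) of 9853 genes with neither match. At 24 h the median log2 difference was -0.01 in the genes with a siSMYD3#1 match alone, -0.02 in those with a siSMYD3#2 match alone and 0.00 in those with neither. For 8-base sites at 24 h these medians were -0.033, 0.002 and -0.003. At 0 h they were -0.03, 0.03 and 0.00 for 7-base sites and -0.05, 0.06 and 0.00 for 8-base sites. Of 1441 genes with a siSMYD3#2 match alone, 41 (2.845%) were lower with siSMYD3#2 and 22 (1.527%) were higher. At 0 h, 16 of the 991 (1.615%) were lower with siSMYD3#1, against 88 of 9853 (0.893%) with neither match. At that time 19 of the 1441 (1.319%) were lower with siSMYD3#2, against 30 of 9853 (0.304%). With 8-base sites the shares at 24 h were 3.846% of 442 genes lower with siSMYD3#1 and 4.211% of 475 genes lower with siSMYD3#2. In coding sequence in place of UTRs they were 1.562% and 1.418%, against 1.527% and 2.545% of genes with neither match there. Of the 987 genes with a siSMYD3#2 match alone in coding sequence, 14 were lower with siSMYD3#2 and 26 (2.634%) were higher with it. UTR length moves with these classes, and its part in the shares was not tested.

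**Figure D5:**
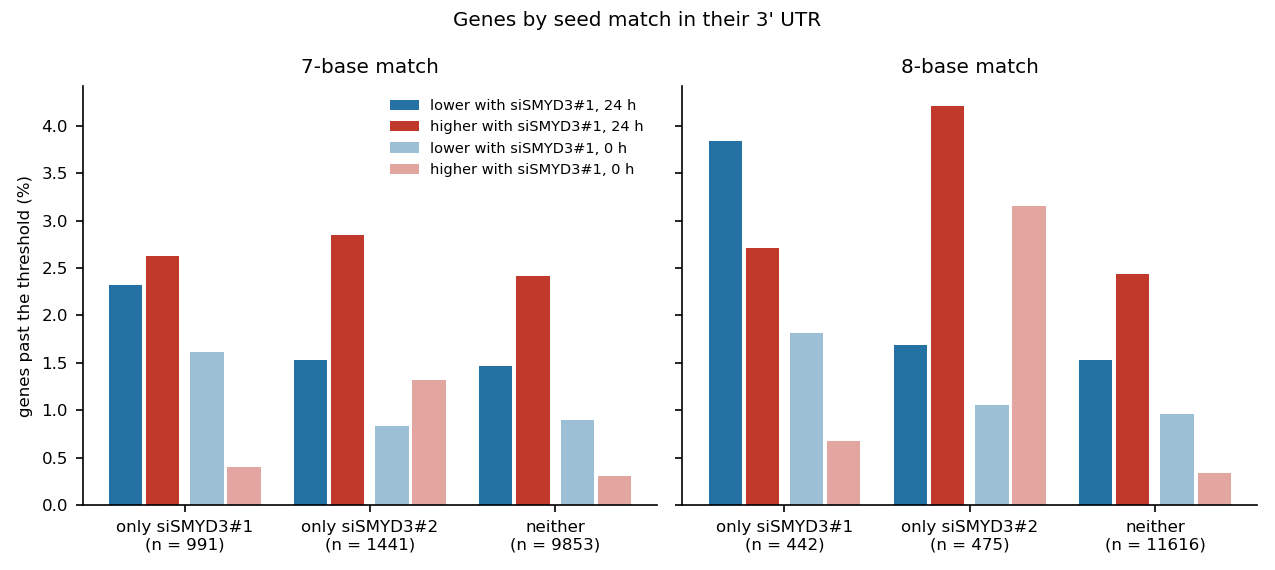
Percent of genes past an edgeR adjusted p of 0.01 (y axis) by the seed match in their 3′ UTR (x axis, with the number of genes), for 7-base matches on the left and 8-base matches on the right; blue bars are genes lower and red bars genes higher with siSMYD3#1, dark at 24 h and light at 0 h. With 8-base matches, 3.846% of the siSMYD3#1 class were lower with siSMYD3#1 and 4.211% of the siSMYD3#2 class were higher with siSMYD3#1 at 24 h, against 1.532% and 2.436% of the class with neither match.

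Genes with a siSMYD3#1 match alone went both ways, 26 being higher and 23 lower with siSMYD3#1 at 24 h. Among the higher ones were Prelp (3.36), Col1a1 (2.00), Cp (1.95) and Tcf7 (1.57), each with 1 match. The match is an 8-base site in Cp and Tcf7. The genes described next were chosen because they were lower with the siRNA whose seed they match. Pip4k2b, a phosphoinositide kinase with 2 matches, was at 45.2, 48.2 and 67.6 CPM with siSMYD3#1, 95.5, 97.7 and 113 CPM with siSMYD3#2 and 78.3, 79.0 and 96.3 CPM with siCtrl, and only siSMYD3#1 was low (log2 difference -0.94, edgeR adjusted p = 4.48e-06). Akirin1 also has 2 matches and Lclat1 has 1, and all 3 genes were called at 0 h as well. Ppfia4, a liprin with 2 siSMYD3#1 matches, was low with both siRNAs, -2.66 and -1.5 against siCtrl (edgeR adjusted p = 3.63e-07 and 0.00018), and its difference of -1.16 between them was lost without siSMYD3#1 replicate 1 or 2 or siSMYD3#2 replicate 3 (highest adjusted p 0.0235). Among genes with a siSMYD3#2 match, Zfp36l1, an mRNA decay factor with 1 match, was at 67.7, 62.5 and 31.7 CPM with siSMYD3#1, 22.6, 24.0 and 23.4 CPM with siSMYD3#2 and 41.2, 38.0 and 40.4 CPM with siCtrl (1.15 between the siRNAs, edgeR adjusted p = 0.000343), so that siSMYD3#2 was below siCtrl in each library. Foxd1, a forkhead transcription factor with 3 matches, was at 0.121, 0.0577 and 0.275 CPM with siSMYD3#2 and at 0.175, 0.131 and 0.211 CPM with siCtrl, which overlapped, while siSMYD3#1 was at 0.580, 0.778 and 1.29 CPM (2.51 between the siRNAs, edgeR adjusted p = 0.0054, lost on leaving out any of 5 libraries, highest adjusted p 0.0363). The 3′ UTR of Smyd3 holds 2 matches of each seed.

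Matches of the whole antisense strands in the genes tested were counted with up to 4 mismatches. Besides Smyd3, the antisense strand of siSMYD3#1 paired with 2 mismatches with 3 of the genes tested. None of them was called by edgeR or DESeq2, and 1 had an unadjusted p under 0.05. One of these 3 was Smyd5, of the same family as Smyd3 and named after its values were seen. Its log2 difference was -0.36 (edgeR adjusted p = 0.0346). With 3 mismatches the strand paired with 39 genes, of which edgeR called 2 and DESeq2 4, and 9 had an unadjusted p under 0.05. Of all 15820 genes, edgeR called 532, and 3513 had an unadjusted p under 0.05. The antisense strand of siSMYD3#2 paired with 0 genes at 2 mismatches and with 22 at 3 mismatches, of which 0 were called by edgeR, 3 had an unadjusted p under 0.05 and 1 was called by DESeq2. At 4 mismatches the antisense strands of siSMYD3#1 and siSMYD3#2 paired with 240 and 160 genes, of which edgeR called 5 in each case.

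Some of the named genes are neighbours in the genome. A stretch of chromosome 1, chr1:133910304-134332928, holds 7 tested genes, in the order Prelp (3.36), Fmod (3.19), Btg2 (0.21), Mybph (-1.81), Adora1 (-2.24), Myog (-1.77) and Ppfia4 (-1.16). Of these, 5 were called, and Btg2 and Adora1, both named after their values were seen, were not (edgeR adjusted p = 0.201 and 0.0341). Adora1 shares exon bases with Mybph. Wnt6 and Wnt10a lie side by side at chr1:74771892-74804179 and were both called. Trdc and Trac bound a stretch of chromosome 14, chr14:54142851-54224206, in which 2 of 3 tested genes were called. Each of these stretches was bounded by genes already called, so the counts were partly fixed by that choice. They do not test whether called genes cluster, and over all genes 2.05% were higher and 1.31% lower.

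Markers of myoblasts were present in all libraries, with summed levels of 585 to 2414 CPM with siSMYD3#1 and 621 to 1949 CPM with siSMYD3#2, and 0 of 7 tested were called by edgeR (1 at an unadjusted p under 0.05 and 1 by DESeq2). Markers of differentiating muscle summed to 56.1 to 114 CPM with siSMYD3#1, 203 to 226 CPM with siSMYD3#2 and 428 to 1381 CPM with siCtrl, and 2 of 7 tested (Myog and Ckm) were lower with siSMYD3#1. The fibroblast markers described with the collagens summed to 83.5 to 220 CPM with siSMYD3#1 and 72.2 to 178 CPM with siSMYD3#2, with Thy1 and Tcf21 at 0 counts in all 6 libraries. Smooth muscle and pericyte markers summed to 3086 to 5112 CPM and 2198 to 4130 CPM, with 0 of 6 called by edgeR (4 at an unadjusted p under 0.05 and 1 by DESeq2). Markers of adipocytes summed to 21.5 to 24.6 CPM with siSMYD3#1 and 18.8 to 24.98 CPM with siSMYD3#2. Those of osteoblasts or chondrocytes summed to 96.8 to 115 CPM and 90.8 to 114 CPM. For macrophages the sums were 12.7 to 19.4 CPM and 10.98 to 13.9 CPM, and for endothelial cells 0.337 to 2.34 CPM and 0.784 to 1.15 CPM. By edgeR and by DESeq2, 0 of the 3, 4, 3 and 3 tested were called (1, 0, 1 and 1 at an unadjusted p under 0.05). The marker counts stand beside 2.05% of all genes called higher and 1.31% lower, and 3513 of 15820 with an unadjusted p under 0.05. At 0 counts in all 6 libraries were 3 of the 8 adipocyte markers (Adipoq, Cidec and Lep), 1 of 8 for osteoblasts or chondrocytes (Ibsp), 1 of 8 for macrophages (Adgre1) and 3 of 8 for endothelial cells (Erg, Cldn5 and Emcn). Fewer differentiating cells and less RNA of these genes per cell cannot be told apart in bulk RNA.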

How the data were processed

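RNA-seq was measured in C2C12 cells from stranded mRNA libraries read as paired ends. Per the labels and the study's methods, the authors aligned reads to GRCm38 with HISAT2 2.1.0 and deposited raw counts per Ensembl gene from featureCounts (Subread 1.6.3), not normalized; the annotation release and strand setting are not given in the sources used here. DESeq2 served for the study's own tests, with extraction beside condition in its design. Here all 18 siRNA libraries were fitted as 6 groups with extraction as covariate in edgeR 4.0.16 (R 4.3.3; TMM, filterByExpr, robust quasi-likelihood, Benjamini-Hochberg over 15820 genes, threshold 0.01), checked on simulated data. CPM used TMM-scaled libraries, and depth bounds their precision (14315193 to 32165613 counts). The SE is the log2 difference over the root of F. Conditions came from the labels; replicate number and passage came from the study's sample table. Same-numbered libraries of the siRNAs deviated together (correlations 0.571, 0.484 and 0.797 at 24 h), but so did differently numbered NucleoSpin libraries (0.552 and 0.542), and within NucleoSpin the same-number correlation was -0.034; the number was used as a block only in an alternative.

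Named genes were Smyd3, the 15 largest differences per direction among called genes (mean of at least 100 counts, libraries not overlapping), up to 4 called members per list and direction (or the 2 most abundant where none passed), the 5 largest with a seed match per siRNA, and Myog, Myod1, Mymk, Ckm and Myh3; other genes with values are said to be named after their values were seen. Genes and lists were chosen with earlier results of these data known. Alternatives were scaling, DESeq2 1.42.0, filter, samples, covariate, block, threshold and leaving out each library.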

Additional observations from a re-analysis of the deposited data

How the results depend on the processing

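The count of genes that differed at 24 h was 532; it was 1349 at an adjusted p under 0.05, 131 with at least a 2-fold difference, 1021 by DESeq2, 1486 in the NucleoSpin libraries alone, 25 without the extraction covariate, 1092 without the filter on low counts and 180 to 872 with each library left out. With DESeq2 size factors it was 520, in the 6 libraries alone 414 and with the replicate block 446. At 0 h the count was 185, and under the same alternatives 387, 28, 407, 423, 11, 468 and 66 to 127, and 154 with the replicate block. For the interaction the count of 0 became 6 at an adjusted p under 0.05, 22 by DESeq2, 70 in NucleoSpin libraries alone, 123 without the filter and 0 to 9 with a library left out, and it was 0 with the block. Of list members, 98 were called, and 158 by DESeq2, 290 in NucleoSpin libraries alone, 8 without the extraction covariate, 248 without the filter and 38 to 145 with a library left out. The share of siSMYD3#1 seed genes called lower, 2.321%, was 3.846% with 8-base sites, and that of siSMYD3#2, 2.845%, was 4.211% with 8-base sites and 1.418% in coding sequence. The cause of these differences was not tested.

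Of 115 named genes past the threshold, 114 passed by DESeq2, 102 with the replicate block, 108 in NucleoSpin libraries alone, 82 in the 6 libraries alone, 11 without the extraction covariate and 54 whichever single library was left out, and 0 changed direction under any of these alternatives. Exon bases are shared with another gene in 40 of 126 named genes.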
